A study of Homo sapiens with 8 samples.

Results

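The 9 genes described here encode components and regulators of the complement system: C3, CFB, C1R, C1S, CFI, SERPING1, CD46, CD55 and CD59. They were taken by symbol from the 23391 genes counted in 8 RNA-seq libraries of DU145 cells, a human prostate cancer line, and were chosen by their role and, for C3, by its lower values with Esrrb and with DY131 in earlier results of these data. DU145-Esrrb was a pool of cells stably transfected with an expression vector for the orphan nuclear receptor Esrrb, and DU145-pc3.1 was the matching pool with the empty pcDNA3.1-zeo vector. Both pools had been selected with Zeocine and were used at the same passages. Each was studied without DY131, which the series describes as vehicle treatment, and with 3 μM DY131, a synthetic ligand of Esrrb and Esrrg, in medium with charcoal-stripped serum. The length of the DY131 treatment is not given in the sources used here. With 2 biological replicates in each of the 4 groups, the p-values measure the spread between these replicates, estimated partly from all tested genes together. Other differences between the pools cannot be told apart from the effect of Esrrb.

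Complement is a cascade of plasma and tissue proteins that tags and lyses cells. C1r and C1s are the serine proteases of the C1 complex that opens the classical pathway, factor B is the protease of the alternative pathway, and both routes meet at the cleavage of C3. Host cells hold the cascade in check with soluble inhibitors, C1 inhibitor (SERPING1) and factor I (CFI), and with the membrane proteins CD46, CD55 and CD59, which are known to be abundant on epithelial tumour cells.

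The libraries held 7858743 to 11551690 reads counted on genes, and the DY131-treated DU145-Esrrb libraries were the smallest. ESRRB counts were 104 and 99 in untreated and 105 and 143 in DY131-treated DU145-Esrrb libraries. They were 0 to 3 in the 4 DU145-pc3.1 libraries, as labelled. Since the DY131-treated DU145-Esrrb libraries held fewer reads, ESRRB per read was higher there than in untreated DU145-Esrrb libraries, and this difference was not tested. All 5 epithelial markers were counted, with a summed level of 2503 to 3166 cpm (reads scaled to library size). Of the prostate luminal markers, KLK3 and KLK2 were at 0 in all 8 libraries and TMPRSS2 had at most 1 read. The hepatocyte list summed to 95.6 to 135 cpm, nearly all of it SERPINA1, with at most 1 ALB read per library. The myeloid and lymphoid list summed to 59.7 to 94.0 cpm, nearly all of it CD68, with at most 1 PTPRC read and no CD3E read. The fibroblast and endothelium list summed to 3.26 to 6.73 cpm, with DCN at 0. With DY131, the DU145-pc3.1 replicates stood further apart than those of other groups, with a chi-square per degree of freedom of 7.51 over genes against 1.31 to 2.70 in the other groups.

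The members covered a wide range of levels. Per kilobase of transcript, CD46 stood first in untreated DU145-pc3.1 cells at 82.3 cpm per kb, followed by CD59 at 35.3 and CD55 at 22.7. SERPING1 at 5.20, C1R at 4.01 and C1S at 3.84 cpm per kb came next, and these neighbours overlapped between replicates. C3 at 1.70 cpm per kb and CFI at 0.439 followed, and CFB was listed at 0. The same 3 membrane regulators led in all 4 groups, each above the next in both replicates. The lower part of the order moved between groups only where neighbours overlapped: C1S stood above C1R in DY131-treated DU145-pc3.1 cells, at 2.13 against 2.02 cpm per kb. These levels per length rest on the transcript chosen for each gene, and CD59 was set to a transcript of 7631 bases.

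Of the 9 members, 7 passed the filter of at least 1 cpm in at least 2 libraries. CFI and CFB did not pass. C3 was chosen for its pattern, so its values are given as a description with no test, and the counts of tested members cover the other 6. A member passed where the quasi-likelihood F test of edgeR, adjusted over all 13856 genes tested, gave a p under 0.05. In whole cultures, fewer cells with a transcript and less of it per cell cannot be told apart.

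Without DY131, C1R, C1S, SERPING1 and the membrane regulators did not differ between the pools past the test. With DY131, C1R, C1S and SERPING1 were lower and CD59 was higher in both pools by edgeR's quasi-likelihood test. The calls of SERPING1 in both pools and of C1S in DU145-pc3.1 were lost with DESeq2. Over all genes, too, a smaller share passed for Esrrb without DY131 (4.18%) than for DY131 in DU145-pc3.1 (37.4%) or in DU145-Esrrb (58.7%). In counts, 0 of the 6 tested members passed for Esrrb without DY131, by edgeR's quasi-likelihood test, its exact test and DESeq2 alike, and 0 had an unadjusted p under 0.05. Over all 13856 genes tested 4.18% passed by the quasi-likelihood test, so 0 of 6 is close to the share over all genes. By the same test 2297 genes had an unadjusted p under 0.05. With DY131 in DU145-pc3.1, 4 of 6 passed against 37.4% of all genes: C1R, C1S and SERPING1 were lower, as were 18.5% of all genes, and CD59 was higher, as were 18.9%. None of the 4 had an absolute Log2FC of at least 1, against 4.19% of all genes. With DY131 in DU145-Esrrb, 5 of 6 passed against 58.7% of all genes: C1R, C1S, SERPING1 and CD55 were lower, against 29.5%, and CD59 was higher, against 29.2%. C1R, C1S and SERPING1 also passed with a Log2FC of -1 or lower, against 9.04%. For Esrrb with DY131, 1 of 6 passed, against 50.4% of all genes, and for the difference between the DY131 responses 1 of 6, against 33.7%. This was CD59 in both cases, higher as in 25.1% and 16.1% of all genes. The replicates of the compared groups did not overlap for 3 of the 6 members for Esrrb without DY131 (51.6% of all genes), 4 for DY131 in DU145-pc3.1 (65.5%), 5 for DY131 in DU145-Esrrb (82.2%) and 3 for Esrrb with DY131 (72.7%). The median Log2FC over the 6 was -0.01, -0.48, -0.74 and -0.13 in these 4 comparisons, beside medians within 0.01 of 0 over all genes. The 2 comparisons of Esrrb with pc3.1 share no library, nor do the 2 of DY131 with untreated cells, but each of the first shares libraries with each of the second.

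**Figure D1:**
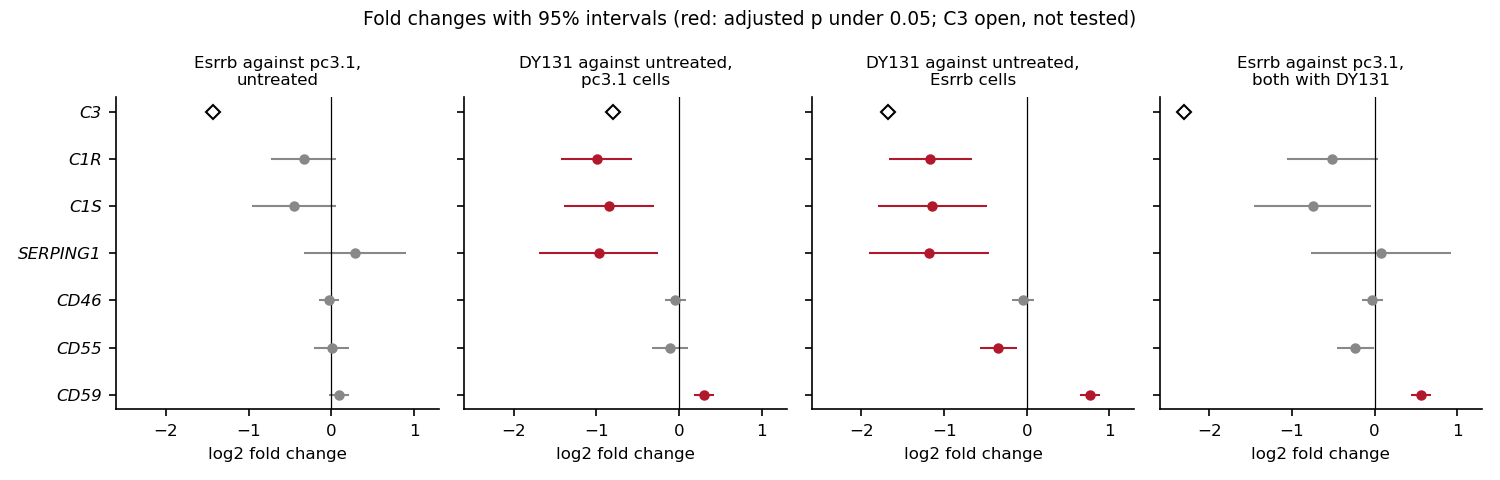
Log2 fold change of the 7 members above the filter (x axis) in 4 comparisons (panels), with 95% intervals from edgeR; red marks an adjusted p under 0.05, grey marks members that did not pass, and C3 is drawn open because it was not tested. C1R, C1S and SERPING1 are red and left of 0 in both DY131 panels, and CD59 is red and right of 0 in 3 of the 4 panels.

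**Figure D2:**
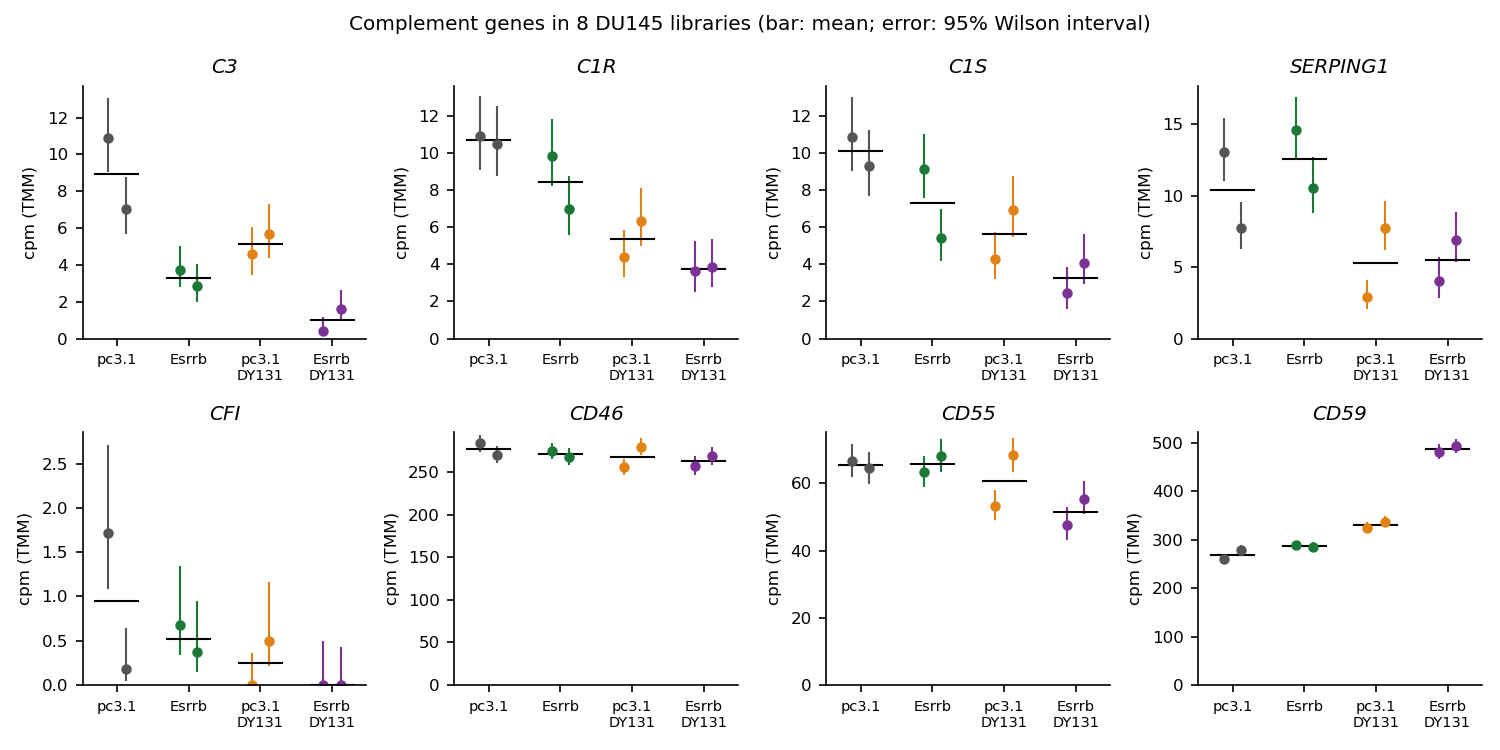
Level of each member with reads, in cpm after TMM scaling, in each library; the x axis gives the 4 groups, points are libraries with 95% Wilson intervals for counting error, and black bars are means of 2 replicates. C3 is lowest in DY131-treated DU145-Esrrb cells at 0.391 and 1.58 cpm, while CD59 is highest there at 481 and 494 cpm.

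C3 is the protein on which all complement pathways converge. Because C3 was chosen for its lower values with Esrrb and with DY131, it is not ranked among the members. Its level was 10.9 and 7.04 cpm in the untreated DU145-pc3.1 replicates, from 114 and 80 reads. It was 3.73 and 2.85 cpm in untreated DU145-Esrrb cells, 4.58 and 5.65 cpm in DY131-treated DU145-pc3.1 cells, and 0.391 and 1.58 cpm in DY131-treated DU145-Esrrb cells, the last from 3 and 14 reads. Ordered by mean, untreated DU145-pc3.1 (8.96 ± 2.71 cpm, SD, n = 2) was followed by DY131-treated DU145-pc3.1 (5.12 ± 0.759), untreated DU145-Esrrb (3.29 ± 0.625) and DY131-treated DU145-Esrrb (0.987 ± 0.842). No neighbours in this order overlapped between replicates. The log2 fold change (Log2FC) of C3 was -1.43 for Esrrb without DY131, -0.80 for DY131 in DU145-pc3.1, -1.68 for DY131 in DU145-Esrrb and -2.30 for Esrrb with DY131. The difference between the DY131 responses of the pools was -0.87, again with no test.

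The size of the C3 values in DY131-treated DU145-Esrrb cells rested on few reads. Without the library with 3 reads the Log2FC of C3 for DY131 in DU145-Esrrb was -1.06, and without the library with 14 reads it was -3.04. The Log2FC of C3 for Esrrb with DY131 was -1.69 and -3.67 in the same order, and the difference between the DY131 responses was -0.26 and -2.25. The C3 transcript has 41 exons, and 37.6% of its possible 50-base reads cross an exon junction. The 500 tested genes nearest to C3 in this share had a median Log2FC of -0.65 for DY131 in DU145-Esrrb, -0.02 for DY131 in DU145-pc3.1 and -0.02 for Esrrb without DY131. With an offset for junction share in the model, the Log2FC of C3 was -1.001 for DY131 in DU145-Esrrb and -1.67 for Esrrb with DY131, and remained at -1.41 for Esrrb without DY131 and -0.74 for DY131 in DU145-pc3.1.

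The 5 tested genes whose pattern over the 8 libraries was most like that of C3, by the root mean square difference of centred log2 cpm, were S100A9 (0.37), GPR82 (0.39), OASL (0.39), DDX60 (0.40) and EFCAB2 (0.42). OASL, an interferon-induced gene, had means of 30.6 cpm in untreated DU145-pc3.1, 10.1 in untreated DU145-Esrrb, 19.4 in DY131-treated DU145-pc3.1 and 4.21 in DY131-treated DU145-Esrrb cells. DDX60, also interferon-induced, had means of 12.998, 4.22, 11.3 and 2.07 cpm in the same order. The other 3 genes were at under 4 cpm in all groups: S100A9, for example, had means of 3.39, 1.17, 1.61 and 0.339 cpm.

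C1R and C1S, the paired proteases of C1, lie next to each other on chromosome 12 on opposite strands. C1R was at 10.9 and 10.5 cpm in untreated DU145-pc3.1 cells, 9.85 and 6.99 cpm in untreated DU145-Esrrb cells, 4.39 and 6.35 cpm in DY131-treated DU145-pc3.1 cells and 3.65 and 3.84 cpm in DY131-treated DU145-Esrrb cells. All 4 DY131-treated libraries were below all 4 untreated libraries. C1S was at 10.9 and 9.33 cpm in untreated DU145-pc3.1 cells, 9.17 and 5.43 cpm in untreated DU145-Esrrb cells, 4.30 and 6.94 cpm in DY131-treated DU145-pc3.1 cells and 2.48 and 4.07 cpm in DY131-treated DU145-Esrrb cells. For C1S each DY131-treated pair was below its own untreated pair, while a DY131-treated DU145-pc3.1 library was above an untreated DU145-Esrrb library. The 2 genes were counted at near-equal numbers throughout: C1S made up 40.4% to 52.2% of the reads of the pair, and the 95% Wilson interval of every library held 50%.

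C1R fell with DY131 in both pools, with Log2FC -0.995 ± 0.20 (SE, adjusted p = 0.00126) in DU145-pc3.1 and -1.17 ± 0.24 (adjusted p = 0.000555) in DU145-Esrrb. C1S fell too, with Log2FC -0.85 ± 0.25 (adjusted p = 0.0157) and -1.14 ± 0.31 (adjusted p = 0.0052). The call for C1R held under every alternative run except 1: where an absolute Log2FC of at least 1 was also required, it did not pass in DU145-pc3.1. The call for C1S in DU145-pc3.1 was lost with DESeq2 (adjusted p = 0.0534), without untreated DU145-pc3.1 replicate 1 (0.115) and without DY131-treated DU145-pc3.1 replicate 1 (0.0768), and in DU145-Esrrb without untreated replicate 1 (0.104) or without the first DY131-treated library (0.0807). Neither gene passed for Esrrb without DY131, where the Log2FC was -0.34 (95% interval -0.73 to 0.06) for C1R and -0.46 (-0.96 to 0.05) for C1S, or for the difference between the DY131 responses. Of the possible 50-base reads of C1R, 24.0% also occur in C1RL, and how such reads were counted is not given in the sources used here.

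Promoter windows from RefSeq (GRCh38.p14) are shown for C1R and CD59, which passed with DY131 in both pools, and for C1RL, which shares sequence with C1R. Each window runs from 250 bases before a transcription start to 50 bases from it on, 5′ to 3′ on the gene's strand. Windows were found for 6 of the 9 members: CFB, C1R, CFI, CD46, CD55 and CD59. Capitals mark matches, on either strand, to the estrogen-related receptor core AAGGTCA and its longer form TCAAGGTCA, the STAT type TTCNNNGAA and its palindrome TTCCNGGAA, the interferon-stimulated response element, the C/EBP type TTGCNNAA, CCAAT and the GC box GGGCGG. The longer receptor form contains the core, and the palindrome is a case of the STAT type. C1R has 2 start sites, on the minus strand at chr12:7092396-7092695 (start 1) and chr12:7091844-7092143 (start 2), and its neighbour in sequence C1RL has 1 at chr12:7109165-7109464, also on the minus strand.
C1R start 1: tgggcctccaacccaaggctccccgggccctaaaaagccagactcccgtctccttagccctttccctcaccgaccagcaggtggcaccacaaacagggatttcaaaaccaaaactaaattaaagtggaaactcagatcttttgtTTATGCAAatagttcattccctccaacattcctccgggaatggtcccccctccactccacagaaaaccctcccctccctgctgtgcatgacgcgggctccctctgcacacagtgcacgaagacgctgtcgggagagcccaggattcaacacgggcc
C1R start 2: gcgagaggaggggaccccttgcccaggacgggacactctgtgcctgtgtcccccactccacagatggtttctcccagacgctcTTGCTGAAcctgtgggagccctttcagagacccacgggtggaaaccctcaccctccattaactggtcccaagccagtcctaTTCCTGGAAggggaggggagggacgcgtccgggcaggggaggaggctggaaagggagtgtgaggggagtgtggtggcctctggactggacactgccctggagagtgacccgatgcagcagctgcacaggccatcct
C1RL: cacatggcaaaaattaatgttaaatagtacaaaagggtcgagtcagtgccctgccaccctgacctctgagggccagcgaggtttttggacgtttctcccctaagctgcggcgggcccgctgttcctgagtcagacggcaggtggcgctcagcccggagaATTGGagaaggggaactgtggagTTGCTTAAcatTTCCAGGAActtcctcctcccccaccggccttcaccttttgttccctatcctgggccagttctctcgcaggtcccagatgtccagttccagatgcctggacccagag

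The C1R window at start 2 held the palindrome TTCCTGGAA beginning 86 bases upstream of the start and TTGCTGAA 167 bases upstream. The C1RL window held TTCCAGGAA 57 bases upstream and TTGCTTAA 68 bases upstream. C/EBP matches were also in the C1R window at start 1, with TTATGCAA 106 bases upstream, and in the CD59 window at start 3. The CFB window held the palindrome TTCCGGGAA 92 bases upstream and a match to the interferon-stimulated response element. Of all 35116 promoter windows, 1.15% held a match to the palindrome and 10.5% one to the C/EBP type. The estrogen-related receptor core, present in 3.92% of all windows, was in none of the windows of the 6 members or of C1RL, and these are matches of letters in short windows only.

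SERPING1, the inhibitor that takes C1r and C1s off the C1 complex, also fell with DY131. Its level was 13.1 and 7.75 cpm in untreated DU145-pc3.1 cells, 14.6 and 10.6 cpm in untreated DU145-Esrrb cells, 2.90 and 7.74 cpm in DY131-treated DU145-pc3.1 cells and 4.04 and 6.90 cpm in DY131-treated DU145-Esrrb cells. Each DY131-treated pair lay below its untreated pair, in DU145-pc3.1 cells only just, at 7.74 against 7.75 cpm. The Log2FC was -0.97 ± 0.34 (adjusted p = 0.0341) in DU145-pc3.1 and -1.18 ± 0.34 (adjusted p = 0.00746) in DU145-Esrrb. The first call was lost with DESeq2 (adjusted p = 0.266), with the compared libraries alone (0.061), and without the first replicate of untreated (0.349) or DY131-treated (0.214) DU145-pc3.1 cells, where the Log2FC was -0.55 and -0.40. Without DY131-treated DU145-pc3.1 replicate 2 it was -1.83 (adjusted p = 4.11e-05). The second was lost with DESeq2 (0.0975), without untreated DU145-Esrrb replicate 1 (0.075) and without the first DY131-treated DU145-Esrrb library (0.109). Esrrb without DY131 gave a Log2FC of 0.29 (95% interval -0.33 to 0.90), with overlapping groups.

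CFI, the protease that cleaves C3b and C4b, was counted at 18 and 2 reads in untreated DU145-pc3.1 cells and 8 and 4 reads in untreated DU145-Esrrb cells. It had 0 and 5 reads in DY131-treated DU145-pc3.1 cells and 0 reads in both DY131-treated DU145-Esrrb libraries. Set against a floor of 3 reads over the DY131-treated group, the 12 reads in untreated DU145-Esrrb cells gave a ratio of 2.92. This ratio takes the 12 reads as exact, so it is not a lower bound for counting error. In DU145-pc3.1 cells the groups overlapped. A gene model that overlaps CFI shares 71.8% of its possible reads, so these few reads may not all belong to CFI.

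CFB was listed at 0 in all 8 libraries, and so were many of its neighbours in the major histocompatibility complex on chromosome 6. Within 500 kb of CFB, 35 of 62 genes (56.5%) were at 0 in every library, against 94 of 746 (12.6%) on the rest of chromosome 6 beyond 5000 kb and 2530 of 18010 (14.1%) on other chromosomes. Genes that every cell uses were among those near CFB, such as VARS and LSM2, and RPS18, further along the region, was at 0 too. The complement genes of the same region stood alike: C2 was at 0, and C4A and C4B had a total of 3 reads each. For these 4 genes the table therefore gives no usable level, and whether DU145 cells transcribe CFB was not tested.

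**Figure D3:**
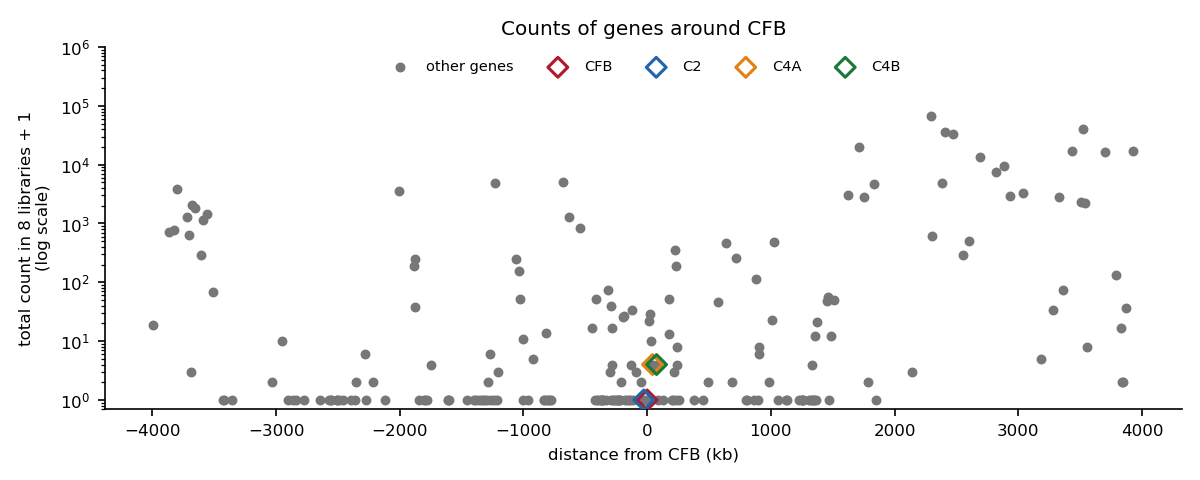
Total count over the 8 libraries plus 1 (log scale) of each gene within 4000 kb of CFB, by distance in kb; diamonds mark CFB, C2, C4A and C4B and grey points the other genes. CFB and C2 sit at a count of 0 among neighbours that are mostly at or near 0, while counts rise beyond about 1500 kb on the right.

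CD59, which blocks the last step of the membrane attack complex, was the only one of the 6 tested members that rose. Its level was 260 and 279 cpm in untreated DU145-pc3.1 cells, 288 and 286 cpm in untreated DU145-Esrrb cells, 325 and 338 cpm in DY131-treated DU145-pc3.1 cells and 481 and 494 cpm in DY131-treated DU145-Esrrb cells. The 4 groups did not overlap, and the replicates were close. With DY131, CD59 rose by a Log2FC of 0.30 ± 0.06 (adjusted p = 0.000768) in DU145-pc3.1, to 123% of the untreated level, and by 0.76 ± 0.06 (adjusted p = 3.12e-08) in DU145-Esrrb, to 170%. Esrrb without DY131 gave 0.09 (95% interval -0.03 to 0.21, adjusted p = 0.463), and Esrrb with DY131 gave 0.56 ± 0.06 (adjusted p = 1.27e-06). The response to DY131 was larger in DU145-Esrrb than in DU145-pc3.1 cells by 0.47 ± 0.08 (adjusted p = 0.000462).

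Of the possible 50-base reads of CD59, 1.94% cross an exon junction, and the 500 tested genes nearest to it in this share had a median Log2FC of 0.27 for DY131 in DU145-Esrrb and -0.04 for DY131 in DU145-pc3.1. With the offset for junction share, CD59 still rose with DY131 in DU145-Esrrb (0.66, adjusted p = 2.7e-07), and the difference between the pools was 0.30 (adjusted p = 0.0212). With an offset for transcript length and GC content, the rise in DU145-pc3.1 was 0.12 and no longer passed (adjusted p = 0.127). CD59 has 4 start sites in RefSeq. The first lies on the minus strand of chromosome 11, with its window at chr11:33736430-33736729, and is shown with the same capitals.
CD59 start 1: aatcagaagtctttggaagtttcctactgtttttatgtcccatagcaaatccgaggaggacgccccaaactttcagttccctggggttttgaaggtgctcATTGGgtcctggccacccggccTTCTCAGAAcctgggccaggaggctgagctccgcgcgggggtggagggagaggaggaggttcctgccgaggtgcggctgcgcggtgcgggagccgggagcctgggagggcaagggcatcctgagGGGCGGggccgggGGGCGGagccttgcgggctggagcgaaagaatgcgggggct

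This window held TTCTCAGAA beginning 128 bases upstream of the start, GC boxes 4 bases upstream and 10 bases downstream, and a reversed CCAAT 150 bases upstream. A GC box was in 45% of all windows, a CCAAT in 34.6% and the STAT type in 7.66%. The CD59 window at start 3, not shown, held the C/EBP matches TTAGGCAA 191 bases and TTGCTCAA 53 bases upstream. No match to the estrogen-related receptor core was found in any of the 4 CD59 windows.

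CD46 and CD55 both lie on chromosome 1, in the cluster of complement regulators. CD46, the cofactor for factor I, was at 284 and 271 cpm in untreated DU145-pc3.1 cells, 275 and 269 cpm in untreated DU145-Esrrb cells, 256 and 280 cpm in DY131-treated DU145-pc3.1 cells and 258 and 269 cpm in DY131-treated DU145-Esrrb cells. All groups compared overlapped. Its Log2FC lay between -0.05 and -0.03 in the 4 comparisons, and the 95% intervals together reached from -0.18 to 0.10, so a change of CD46 by more than 0.18 on the log2 scale lies outside all 4 intervals. CD55, which breaks up the C3 convertases, was at 66.7 and 64.5 cpm in untreated DU145-pc3.1 cells, 63.3 and 68.1 cpm in untreated DU145-Esrrb cells, 53.4 and 68.3 cpm in DY131-treated DU145-pc3.1 cells and 47.7 and 55.5 cpm in DY131-treated DU145-Esrrb cells. CD55 fell with DY131 in DU145-Esrrb, by a Log2FC of -0.34 ± 0.11 (adjusted p = 0.0106), and did not pass in DU145-pc3.1, where the groups overlapped (-0.11, 95% interval -0.32 to 0.10). The call was lost without untreated DU145-Esrrb replicate 2 (adjusted p = 0.0714) and without the first DY131-treated DU145-Esrrb library (0.14). The difference between the responses of CD55 did not pass (-0.23, adjusted p = 0.233), but did without DY131-treated DU145-pc3.1 replicate 1 (-0.42, adjusted p = 0.00351).

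Summed per kilobase, the 3 membrane regulators stayed between 137 and 164 cpm per kb in the 8 libraries, and the sum of C3, C1R, C1S and SERPING1 ran from 4.41 to 16.8. C3 was chosen for its lower values with Esrrb and with DY131, so part of the fall of this soluble sum follows from that choice. The sums and their ratios are descriptions with no test. The membrane sum was 8.41 and 11.0 times the soluble sum in untreated DU145-pc3.1 libraries and 9.31 and 13.4 times in untreated DU145-Esrrb libraries. With DY131 it was 24.5 and 15.2 times in DU145-pc3.1 and 35.4 and 24.3 times in DU145-Esrrb libraries, above all untreated libraries. CD59 made up 24.1% to 26.7% of the membrane sum in the untreated libraries, 31.1% and 29.3% in DY131-treated DU145-pc3.1 and 40.4% and 39.6% in DY131-treated DU145-Esrrb libraries.

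**Figure D4:**
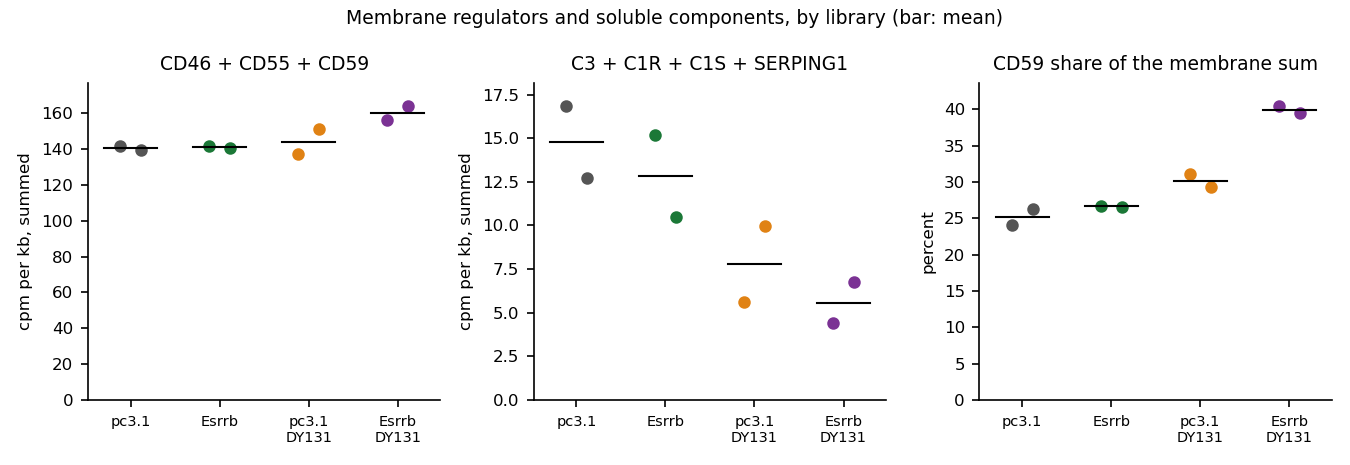
Summed cpm per kilobase of the membrane regulators (left) and of the soluble components and inhibitor (middle), and the percent of the membrane sum that is CD59 (right), in each library by group; bars are means of 2 replicates. The soluble sum is lowest in DY131-treated DU145-Esrrb libraries at 4.41 and 6.73, and the CD59 share is highest there at 40.4% and 39.6%. The soluble sum includes C3, which was chosen for its lower values with Esrrb and with DY131.

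Beyond the members, 50 further complement genes were listed by role: 16 that start the classical and lectin routes, 2 of the alternative route, 7 terminal components, 12 soluble regulators, 4 membrane regulators and 9 receptors. Of these, 9 passed the filter, none of them a membrane regulator, and 17 had no read in any library. The untested genes include C2, C4A and C4B of the classical and lectin list. They lie near CFB and, like it, have no usable level here. None of the 9 passed for Esrrb without DY131 by edgeR's quasi-likelihood test, its exact test or DESeq2, with 3 at an unadjusted p under 0.05. By the quasi-likelihood test 4.18% of all 13856 tested genes passed, and 2297 had an unadjusted p under 0.05. With DY131 in DU145-pc3.1, 6 passed, 5 lower and 1 higher, where 37.4% of all tested genes passed, 18.5% lower and 18.9% higher. In DU145-Esrrb 7 passed, all lower, where 58.7% of all did, 29.5% lower and 29.2% higher. The 1 that rose was the C1q-binding protein gene C1QBP, named after its values were seen, with a Log2FC of 0.41 ± 0.07 (adjusted p = 0.000255). For Esrrb with DY131, 3 passed, all lower, against 50.4% of all tested genes in either direction and 25.1% higher. For the difference between the DY131 responses 2 passed, both more negative in DU145-Esrrb, against 33.7% in either direction and 16.1% higher.

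C1RL, a C1r-like protease, was the one gene of the classical and lectin list above the filter, and it fell in both pools. It was at 48.8 and 56.9 cpm in untreated DU145-pc3.1, 53.0 and 58.7 in untreated DU145-Esrrb, 22.0 and 23.2 in DY131-treated DU145-pc3.1 and 25.0 and 29.4 cpm in DY131-treated DU145-Esrrb cells, listed low to high within each group. The Log2FC was -1.22 ± 0.10 (adjusted p = 6.32e-07) and -1.03 ± 0.10 (adjusted p = 7.26e-07). C5, whose cleavage starts the terminal pathway, fell from a mean of 7.96 to 2.89 cpm with DY131 in DU145-Esrrb (Log2FC -1.45 ± 0.23, adjusted p = 7.88e-05) and from 5.53 to 3.52 cpm in DU145-pc3.1 (-0.65 ± 0.23, adjusted p = 0.0361). ITGAX, a chain of a receptor for cleaved C3, had 29 reads in untreated and 2 in DY131-treated DU145-Esrrb cells, a ratio of 10.6 with a 95% counting interval of 2.67 to 91.4.

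**Figure D5:**
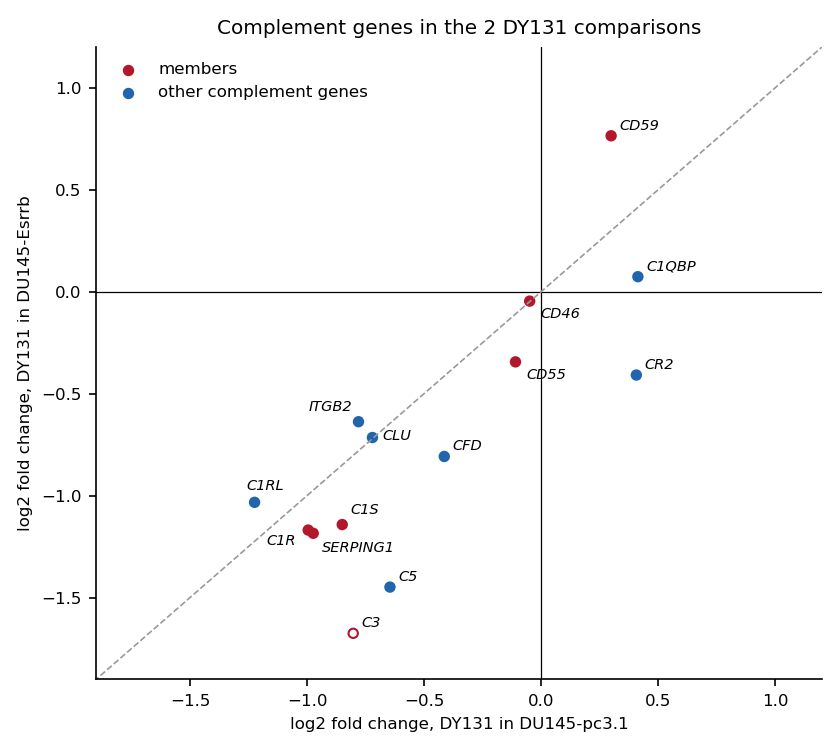
Log2 fold change with DY131 in DU145-pc3.1 (x axis) and in DU145-Esrrb cells (y axis) for the members (red, C3 open) and 7 of the 9 other complement genes above the filter (blue, ITGAX left out with 2 reads in a group); the dashed line marks equal values. CD59 is in the upper right, above the line at 0.30 and 0.76, and C1R, C1S, SERPING1 and C1RL lie at the lower left near -1.

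Complement genes are known to be induced by interleukin-6, interferons and interleukin-1 through STAT, IRF, NF-κB and C/EBP factors, and 16 such inducers were listed. Of these, 13 passed the filter. For Esrrb without DY131, 2 passed, both lower, where 4.18% of all tested genes passed in either direction. With DY131 in DU145-pc3.1 5 passed, 3 higher and 2 lower, against 37.4% of all, 18.9% higher and 18.5% lower. With DY131 in DU145-Esrrb 9 passed, 4 higher and 5 lower, against 58.7%, 29.2% higher and 29.5% lower. CEBPD, the C/EBP factor of the acute phase response, fell with DY131 from a mean of 51.6 to 28.1 cpm in DU145-pc3.1 (Log2FC -0.88 ± 0.13, adjusted p = 0.000101) and from 56.5 to 13.6 cpm in DU145-Esrrb (-2.04 ± 0.15, adjusted p = 3.42e-08). IL6 fell from 10.2 to 2.96 cpm with DY131 in DU145-Esrrb (-1.80 ± 0.22, adjusted p = 5.28e-06) and did not pass in DU145-pc3.1 (-0.44 ± 0.17, adjusted p = 0.055). CEBPD and IL6 were named because they reached an absolute Log2FC of at least 1, which none of the 4 higher in DU145-Esrrb did. The part of these genes in the values of the complement members was not tested.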

How the data were processed

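RNA from the 8 cultures was made into stranded mRNA libraries and sequenced as single 50-base reads. Per the labels and the study's methods, the authors aligned quality-filtered reads to hg18 (TopHat2), and the deposited values are raw counts per gene from their own counting program, not normalized. Its annotation, its use of strand and its handling of reads that map to several genes are not given in the sources used here. The 2 DU145-Esrrb columns with DY131 have identical headings and so no replicate number, and are called first and second.

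A gene needed 1 cpm or more in 2 or more libraries (13856 of 23391), and counts were scaled with TMM. All 8 libraries entered 1 model with 4 groups in edgeR 4.0.16 (R 4.3.3), by its quasi-likelihood F test, with p-values adjusted over all tested genes (Benjamini-Hochberg); the script was first tested on simulated data. The 5 comparisons were Esrrb with and without DY131, DY131 in each pool, and their interaction. DESeq2 1.42.0 and other settings were alternatives. Figures and intervals used Python 3.11.15 with matplotlib 3.10.9 and scipy 1.17.1. Per-library values carry 95% Wilson intervals, and a count of 0 a floor of 3 reads. These cover counting error only, since PCR copies were not told apart. Transcript lengths, exon junctions and shared 50-base windows came from GENCODE (GRCh38), and promoter windows from RefSeq. For CD46, CD55 and CD59 the depth was over 300 reads per library, and for C3, C1R, C1S and SERPING1 it was 3 to 172.

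The members, the lists of other complement genes, inducers and cell type markers, and the rules were chosen with earlier results of these data known. All members were named, and of the other lists the genes with an adjusted p under 0.05 and an absolute Log2FC of at least 1 in any comparison, except 1 that is not reported here. For C3, the 5 genes with the most similar pattern were named (prior count 2).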

Additional observations from a re-analysis of the deposited data

Results flagged for a closer look

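The response of CD59 to DY131 differed between the pools: the interaction of DY131 with Esrrb was 0.47 ± 0.08 on the log2 scale (adjusted p = 0.000462, edgeR). Both libraries of each treated group lay above both untreated libraries of their pool, at 325 and 338 cpm against 260 and 279 in DU145-pc3.1 and at 481 and 494 cpm against 286 and 288 in DU145-Esrrb. Leaving out any 1 library gave 0.41 to 0.50. Over all genes tested, 33.7% passed for this interaction.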

How the results depend on the processing

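C1R and CD59 passed with DY131 under all alternatives run, except CD59 in DU145-pc3.1 with the length and GC offset and, where an absolute Log2FC of at least 1 was also required, both genes in DU145-pc3.1 and CD59 in DU145-Esrrb. The calls of C1S, SERPING1 and CD55 rest on 2 libraries a group, and which of them passed moved with the library left out. Where the pass count is given, the cause of a move was not tested.

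Requiring also an absolute Log2FC of at least 1, the tested members passing were 0, 3, 0 and 0 for DY131 in DU145-pc3.1, DY131 in DU145-Esrrb, Esrrb with DY131 and the interaction. Of all 13856 genes tested, 580, 1666, 1137 and 870 did so in the same order. For Esrrb with DY131 2 members passed with the exact test, 3 with no filter and 2 with a minimum of 10 counts in each library. All genes passing there were 7009 of 13856, 7417 of 18701 and 6501 of 12460. For DY131 in DU145-pc3.1 2 members passed with DESeq2, against 3498 of 13856 genes. Of the other complement genes, 1 passed for Esrrb with DY131 with DESeq2, the length and GC offset or the junction offset. Of all 13856 genes, 5297, 7319 and 5600 passed in these 3 settings. For the interaction 1 passed with DESeq2, with at least 10 counts or with the length and GC offset, and 0 with the junction offset. All genes passing were 2897 of 13856, 4418 of 12460, 5089 of 13856 and 3218 of 13856 in that order. Leaving out 1 library at a time, the members passing ranged from 2 to 5 for DY131 in either pool, 1 to 4 for Esrrb with DY131 and 1 to 2 for the interaction, and the other complement genes from 0 to 1 for Esrrb without DY131, 4 to 7 for DY131 in DU145-Esrrb, 1 to 3 for Esrrb with DY131 and 1 to 3 for the interaction.

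Values near 0 changed sign. The interaction of CD46 was -0.0036 with DESeq2 and with its size factors, -0.0226 with library size alone, -0.0002 with no filter and -0.0371 with at least 10 counts. CD46 was 0.0162 and 0.0557 with the length and GC offset for DY131 in DU145-Esrrb and Esrrb with DY131, and 0.0049, 0.0774 and 0.0566 with the junction offset for DY131 in DU145-pc3.1, DY131 in DU145-Esrrb and Esrrb with DY131. Leaving out 1 library, CD46 ranged from -0.0626 to 0.0066 (Esrrb), -0.1143 to 0.0257 (DY131 in DU145-pc3.1), -0.1032 to 0.0396 (Esrrb with DY131) and -0.0783 to 0.0679 (interaction); CD55 from -0.0484 to 0.0558 (Esrrb) and -0.2964 to 0.0709 (DY131 in DU145-pc3.1); SERPING1 from -0.0497 to 0.7048 (Esrrb), -0.489 to 0.9374 (Esrrb with DY131) and -0.7855 to 0.6443 (interaction); and the interactions of C1R from -0.4397 to 0.1069 and C1S from -0.7232 to 0.1419.

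The replicate block was fitted in the 6 numbered libraries. Deviations of same-numbered libraries had correlations of 0.09, 0.02 and -0.07. Whether same-numbered libraries share a batch was not tested, and the DY131-treated DU145-Esrrb libraries have no number. With the block the Log2FC of SERPING1 for DY131 in DU145-pc3.1 was -0.96 (adjusted p = 0.0679, no longer passing), 392 genes passed for Esrrb and 4879 for DY131 in DU145-pc3.1, against 366 and 4763 without it in the same libraries, and no other call of a member changed. No interaction was run with the exact test or with the compared libraries alone.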
